A study of Mus musculus with 4 samples.

Results

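Crypt base columnar cells are the fast-cycling stem cells at the bottom of the intestinal crypt, and 33 genes known as their markers were followed in RNA-seq libraries of whole crypts. Of these genes, 6 are classic markers (Lgr5, Olfm4, Smoc2, Cd44, Prom1 and Tnfrsf19) and 27 are used less often, among them Gkn3, Cyp2e1, Nrn1, Kif12 and Sectm1b. They were found by Ensembl identifier among the 53845 entries of the count table, with symbols from GENCODE M21, and all 33 were among the 17504 genes with enough counts to be tested. They were listed as known markers, with earlier results of these data known.

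All mice were C57BL/6. In Vil-CREPTKO mice a Cre recombinase driven by the villin promoter cuts the floxed exon 3 out of the CREPT gene (Rprd1b), whose product binds RNA polymerase II. The villin promoter is active in the gut epithelium from development on, so that stromal and immune cells of these mice keep the gene. WT mice, labelled wildtype, were the controls. Across the study, mice of both sexes aged 6 to 8 weeks were used, and the labels give neither age nor sex for a library. There were 2 WT and 2 Vil-CREPTKO libraries, each from crypts of untreated intestine released with EDTA. The methods call the libraries of a group biological replicates, from 2 mice per genotype, so p-values measure the spread between these mice.

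Crypt base columnar cells sit between Paneth cells, divide about daily and feed the transit-amplifying cells above them. Wnt ligands and R-spondins keep them cycling, and the R-spondin receptor Lgr5 is both a target and an amplifier of that signal. Many of the other markers came from comparisons of Lgr5-bright cells with their daughters, and they include receptors, secreted proteins, transcription factors and enzymes.

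The libraries held 47241049 to 49369315 counts, and 3 counts, the limit that a count of 0 allows, were worth 0.0588 to 0.069 CPM. CPM is the count scaled to the library's total, after TMM scaling for differences in composition. The CREPT gene Rprd1b was at 60.5 and 61.6 CPM in WT and at 26.3 and 29.0 CPM in Vil-CREPTKO (adjusted p = 0.00175, log2 fold change -1.14 with an SE of 0.123). Crypt base markers were present in each library, the 5 smooth muscle genes summed to at most 0.366 CPM, and the colon gene Car1 had no count. Of the 4 libraries, only WT replicate 2 had Xist RNA at 863 CPM and no count on 4 Y-linked genes. Xist was at 0.299 to 0.529 CPM in the rest, which carried 148 to 164 CPM of Y-linked RNA, so that the WT group held both sexes by these genes and the Vil-CREPTKO group did not. Mitochondrial genes took 10.2% of the counts of Vil-CREPTKO replicate 1 and 6.75% to 7.62% in the others.

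The levels of the 33 genes were first ordered by CPM per kilobase of exon, the scale on which genes of different length can be compared. They spanned 7323-fold in WT, with a median of 5.13 CPM per kilobase against 3.31 over all genes tested, and 22 of the 33 lay above that all-gene median. Olfm4, a secreted glycoprotein, led with a mean of 516 CPM per kilobase in WT. Clca3b, of the calcium-activated chloride channel regulator family, followed at 160.5, and the vitamin D receptor gene Vdr at 92.9. Sectm1b, which encodes a secreted and transmembrane protein, stood at 79.0 CPM per kilobase, and the heparan sulfate proteoglycan gene Sdc4 at 62.6. The cell division cycle-associated gene Cdca7 (28.2), prominin-1 or CD133 gene Prom1 (13.2) and calcium-binding matrix protein gene Smoc2 (12.2) completed the 8 most abundant on the same scale. Lgr5 was only 26th of the 33, at 1.8 CPM per kilobase, and Shroom4, of a family that binds actin, was last at 0.0705.

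**Figure D1:**
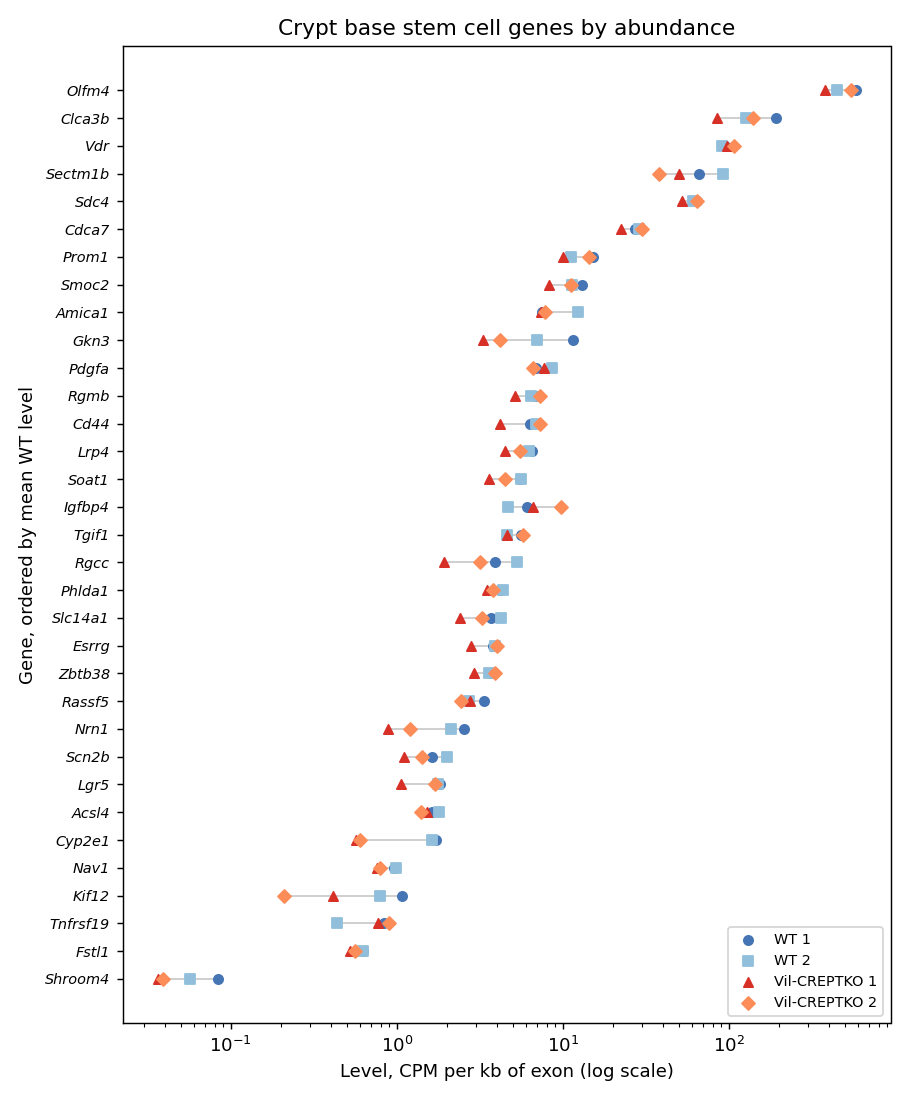
Level of each of the 33 crypt base stem cell genes in each library, as CPM per kilobase of exon on a log axis, with genes ordered from top to bottom by their mean in WT and a grey line joining the 4 libraries of a gene. Olfm4 leads at a WT mean of 516, Lgr5 is 26th at 1.8, and Shroom4 is last at 0.0705.

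Not every step of this order was larger than the spread between the WT libraries. Of the 32 neighbouring pairs, 19 overlapped in their WT range and 13 did not. Olfm4, Clca3b and Vdr were apart from each other, and Cdca7 was apart from both of its neighbours. Vdr and Sectm1b overlapped, as did Prom1 and Smoc2, and Lgr5 overlapped both its neighbours, the sodium channel subunit gene Scn2b and the acyl-CoA synthetase gene Acsl4. Dividing by the longest transcript in place of the exon union left the same 8 genes at the top, while Lgr5 moved from rank 26 to 23.

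The order itself was much alike in the 4 libraries. Spearman's rho over the 33 genes was 0.987 between the WT libraries, 0.989 between the Vil-CREPTKO libraries and 0.958 to 0.966 across groups, as a description of genes that share each library and their lengths. For 25 genes the rank differed by at most 3 places over the libraries. Gkn3 had the widest span, 9 places, from rank 9 in WT replicate 1 to rank 18 in Vil-CREPTKO replicate 1. Igfbp4 went the other way, from rank 17 in WT replicate 2 to rank 9 in Vil-CREPTKO replicate 2, and Rgcc went from 16 in WT replicate 2 to 23 in Vil-CREPTKO replicate 1.

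Between the groups, 2 of the 33 genes passed an adjusted p of 0.05 and both fell, the gastrokine gene Gkn3 and the cytochrome P450 gene Cyp2e1. Over all genes tested, 2.49% passed downward and 0.44% upward. The same genes passed the study's thresholds, an adjusted p under 0.05 with an absolute log2 fold change over 1, which 1.37% of all genes passed downward and 0.286% upward. No gene of the 33 passed upward. At an unadjusted p under 0.05, 10 of the 33 were lower, against 9.76% of all genes, and Igfbp4 alone was higher, against 4.51%. The fold change was negative for 29 of the 33, against 50.9% of all genes, with a median log2 fold change of -0.23 against -0.0060 over all genes. In bulk crypt RNA, fewer cells of a type and less RNA per cell cannot be told apart.

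Both Vil-CREPTKO libraries lay below both WT libraries for 17 of the 33 genes (51.5%), against 24.2% of all genes tested, and above both for Vdr and Igfbp4, against 21% of all genes. Among the 11 most abundant genes of the 33 the count below was 3, among the middle 11 it was 5, and among the 11 least abundant it was 9, with median log2 fold changes of -0.16, -0.21 and -0.38 in that order. Replicate 1 alone lay below both WT libraries for 9, 10 and 9 of these (40% of all genes). Its median log2 ratios to the mean of WT (0.5 CPM added to each side) were -0.42, -0.46 and -0.45. Replicate 2 alone did so for 4, 5 and 10 (36.3% of all genes), with medians of -0.13, 0.050 and -0.30. Classic markers had a median of -0.18 and 2 of 6 genes below both, and the less used markers a median of -0.33 and 15 of 27. This difference was not shared by the libraries. Median log2 ratios to the mean of WT were -0.50 for classic and -0.42 for less used markers in replicate 1. In replicate 2 they were 0.10 and -0.26.

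Each Vil-CREPTKO library was then set against WT on its own. Replicate 1 lay below both WT libraries for 28 of the 33 genes, against 40% of all genes, and above both for Vdr and Igfbp4, against 35.4%. Replicate 2 lay below both for 19, against 36.3%, and above both for 10, against 35.4% of all genes. The median log2 ratio to the mean of WT (0.5 CPM added to each side) was -0.44 in replicate 1 and -0.19 in replicate 2, where all genes tested had medians of -0.023 and -0.0083. Replicate 1 was lower than replicate 2 for 28 of the 33, against 50.1% of all genes. The median absolute log2 ratio between the Vil-CREPTKO libraries was 0.33 for the 33 genes and 0.20 for all genes, and between the WT libraries 0.21 and 0.18.

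**Figure D2:**
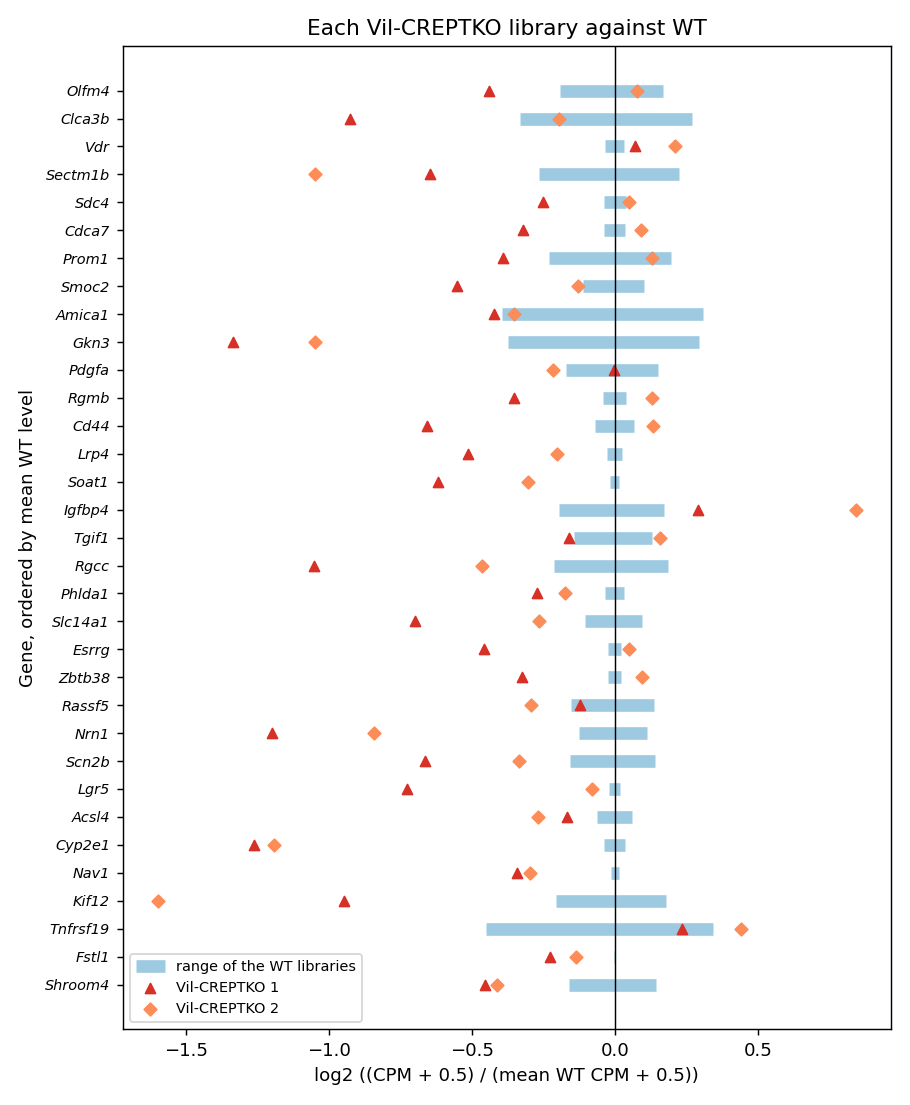
Each Vil-CREPTKO library against WT for the 33 genes, as the log2 ratio of its CPM to the mean WT CPM with 0.5 CPM added to both, with genes in order of their WT level per kilobase. Blue bars span the WT libraries, triangles are Vil-CREPTKO replicate 1 and diamonds replicate 2; triangles lie left of the bar for 28 genes and diamonds for 19.

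In 7 genes the Vil-CREPTKO libraries lay on opposite sides of WT, replicate 1 below both WT libraries and replicate 2 above both. These were Sdc4, Cdca7, Rgmb, Cd44, Esrrg, Zbtb38 and Tgif1, 21.2% of the 33 against 7.86% of all genes, while the reverse placing occurred in 0 of the 33 and in 6.04% of all genes. In 4 more, Olfm4, Clca3b, Prom1 and Amica1, replicate 1 lay below both WT libraries and replicate 2 between them, 12.1% of the 33 against 7.96% of all genes.

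Each Vil-CREPTKO library was also tested alone against the WT pair, where the lone library is assumed to vary like the WT pair. Replicate 1 alone gave 2 lower genes among the 33, Cd44 and Soat1, and 0 higher (2.26% of all genes lower and 1.12% higher). Replicate 2 alone gave 2 lower, Sectm1b and Kif12, and 1 higher, Igfbp4 (2.15% and 0.393% of all genes). No gene passed in both of these tests. Gkn3 and Cyp2e1, called with 4 libraries, had adjusted p values of 0.0517 and 0.0626 against replicate 1 alone and 0.154 and 0.0996 against replicate 2 alone.

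Summed over the 33 genes, the level was 4054 and 3459 CPM in WT and 2824 and 3736 CPM in Vil-CREPTKO. The sum was lowest in Vil-CREPTKO replicate 1, and replicate 2 lay between the WT libraries. Olfm4 made up 38.7% to 43.2% of this sum, and without it the sums were 2333, 2121, 1698 and 2122 CPM in the same order. Vil-CREPTKO replicate 1 was also the library with the highest mitochondrial share, and enterocyte markers summed to 22858 CPM in it and to 13856 to 18413 CPM in the other 3 libraries. Of these 8 markers, Apoa1 and Fabp1 stood out in replicate 1, with log2 ratios to WT of 0.875 and 1.08. The others had at most 0.37, and Apoa4 and Lct lay between the WT libraries. The part of these differences in the lower stem cell gene levels of replicate 1 was not tested.

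The genes that fell differed in level, Gkn3 being 10th of the 33 at 9.23 CPM per kilobase in WT and Cyp2e1 28th at 1.68. Cyp2e1 (ENSMUSG00000025479, chr7:140763739-140774987 in GRCm38), for an enzyme that oxidizes ethanol and other small molecules and is best known from the liver, was at 3.72 and 3.51 CPM in WT and 1.22 and 1.30 CPM in Vil-CREPTKO. The groups were far apart, at 3.62 ± 0.146 in WT and 1.26 ± 0.0593 in Vil-CREPTKO (SD, n = 2). These levels came from 190 and 173 counts in WT and 53 and 64 in Vil-CREPTKO, and an SD of 2 libraries is itself uncertain. Its log2 fold change was -1.52 (SE 0.31, adjusted p = 0.0280), with a 95% interval of -2.20 to -0.84. Replicate 1 kept 33.7% of the mean WT level and replicate 2 36%. Leaving out any of the 4 libraries took its adjusted p to between 0.0626 and 0.0996, with the log2 fold change between -1.56 and -1.47.

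Gkn3 (ENSMUSG00000030048, chr6:87383256-87388935), a secreted gastrokine, was at 9.81 and 5.99 CPM in WT and 2.83 and 3.56 CPM in Vil-CREPTKO. Both Vil-CREPTKO libraries lay below both WT libraries, although the WT libraries were themselves apart. The log2 fold change was -1.30 (SE 0.29, adjusted p = 0.0429), with an interval of -1.95 to -0.66. With upper-quartile scaling the adjusted p was 0.0762, and without WT replicate 1 it was 0.214 with a log2 fold change of -0.91. Without Vil-CREPTKO replicate 2 the adjusted p was 0.0517, and without replicate 1 it was 0.154.

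RefSeq start-site windows were at hand for 27 of the 33 genes, as 43 windows of 300 bases from 250 before to 50 after the start in GRCm38.p6. The 4 printed here belong to the genes that fell, to the most abundant gene Olfm4, and to Igfbp4, the gene with the largest positive fold change. Cyp2e1 and Igfbp4 are on the plus strand, as is Olfm4, and Gkn3 is on the minus strand and is given in the direction of its transcription. The RefSeq starts need not be those of the GENCODE gene models, and for Olfm4 and Cyp2e1 the GENCODE model begins further upstream. Capitals mark the letters CTTTGAA as well as the variants CTTTGAT, further CTTTGTA together with CTTTGTT, all of which resemble the motif of the Wnt effectors TCF and LEF. They also mark the E-box CAGCTG and the TATA box letters TATAAA, each on either strand.
Cyp2e1 chr7:140763569-140763868: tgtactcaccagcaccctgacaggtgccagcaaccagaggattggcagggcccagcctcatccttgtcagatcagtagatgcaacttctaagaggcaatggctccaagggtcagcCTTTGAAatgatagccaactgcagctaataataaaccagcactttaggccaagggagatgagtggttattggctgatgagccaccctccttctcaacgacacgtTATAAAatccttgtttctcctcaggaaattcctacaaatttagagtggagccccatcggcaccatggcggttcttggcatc
Gkn3 chr6:87388886-87389185: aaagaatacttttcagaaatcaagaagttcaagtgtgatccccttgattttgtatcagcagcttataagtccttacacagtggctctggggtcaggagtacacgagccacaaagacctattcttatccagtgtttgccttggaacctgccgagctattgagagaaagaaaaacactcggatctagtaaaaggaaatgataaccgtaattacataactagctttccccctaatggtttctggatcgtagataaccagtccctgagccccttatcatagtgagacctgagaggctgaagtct
Olfm4 chr14:80000052-80000351: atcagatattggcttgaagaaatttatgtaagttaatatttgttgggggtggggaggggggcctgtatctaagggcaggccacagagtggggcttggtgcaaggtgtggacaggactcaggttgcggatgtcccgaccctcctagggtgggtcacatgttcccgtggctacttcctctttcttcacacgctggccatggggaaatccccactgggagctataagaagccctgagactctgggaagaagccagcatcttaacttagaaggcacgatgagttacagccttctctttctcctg
Igfbp4 chr11:99040994-99041293: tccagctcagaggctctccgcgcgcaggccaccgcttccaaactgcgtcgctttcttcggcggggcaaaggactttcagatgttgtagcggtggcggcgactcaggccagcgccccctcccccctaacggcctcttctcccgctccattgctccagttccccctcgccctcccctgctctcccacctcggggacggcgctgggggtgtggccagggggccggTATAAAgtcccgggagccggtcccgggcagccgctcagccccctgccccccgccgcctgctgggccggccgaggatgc
The Cyp2e1 window held CTTTGAA 135 bases and TATAAA 31 bases before the RefSeq start, and Igfbp4 held TATAAA 28 bases before its own. The TATAAA of Cyp2e1 lies inside the GENCODE model of that gene. The windows of Gkn3 and Olfm4 held none of these letters. Any of the TCF/LEF-like strings was in 8 of the 43 windows, from 6 genes (18.6%), against 16.9% of all 32851 windows. CAGCTG was in 11.6% against 16.3%, and TATAAA in 18.6% against 13.6%. The TCF/LEF-like strings differ only in their last letters, so that 1 position can match no more than 1 of them, and CAGCTG reads the same on both strands.

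Of the 8 secreted proteins, Gkn3 fell, and the median log2 fold change of the group was -0.27. Olfm4 (ENSMUSG00000022026, chr14:79984081-80023139) was at 1721 and 1338 CPM in WT and 1127 and 1614 CPM in Vil-CREPTKO, so that replicate 2 lay between the WT libraries. Its log2 fold change was -0.16 (SE 0.24, adjusted p = 0.839), with an interval of -0.69 to 0.37, and it was 0.075 without Vil-CREPTKO replicate 1. Smoc2 was at 91.1 and 78.6 CPM in WT and 57.7 and 77.6 CPM in Vil-CREPTKO, below WT in both, with a log2 fold change of -0.33 (SE 0.16, adjusted p = 0.400). Replicate 2 was close to the lower WT library for this gene.

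Sectm1b was at 183 and 257 CPM in WT and 140.3 and 106 CPM in Vil-CREPTKO. Here replicate 2 was the lower of the Vil-CREPTKO libraries, with 48.3% of the mean WT level against 63.8% in replicate 1, and the log2 fold change was -0.84 (SE 0.20, adjusted p = 0.0742). The log2 fold change was -1.05 without Vil-CREPTKO replicate 1 and -0.64 without replicate 2. It was -1.06 without WT replicate 1 and -0.57 without WT replicate 2. With DESeq2 the adjusted p was 0.00227 and with library-size scaling 0.000393. Upper-quartile scaling gave Sectm1b an adjusted p of 0.0906 and a replicate block 0.104. Its neighbouring paralog Sectm1a lies 3837 bases away, so reads may have been split between them and the level is uncertain. Clca3b, in a cluster with Clca3a2 only 3128 bases away and with the same uncertainty, was at 651 and 428 CPM in WT and 284 and 472 CPM in Vil-CREPTKO. For Clca3b the WT libraries were themselves apart, and its log2 fold change was -0.51 (SE 0.30, adjusted p = 0.520).

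Igfbp4, which encodes a protein that binds insulin-like growth factors, had the most positive log2 fold change of the 33. It was at 26.9 and 20.8 CPM in WT and 29.3 and 43.1 CPM in Vil-CREPTKO. Both Vil-CREPTKO libraries lay above both WT libraries, replicate 1 just above the higher WT library, and the log2 fold change was 0.60 (SE 0.21, adjusted p = 0.219) with an interval of 0.12 to 1.08. Replicate 2 alone against WT gave 0.85 (SE 0.18, adjusted p = 0.0277), and replicate 1 alone 0.30 (SE 0.19, adjusted p = 0.508). The growth factor gene Pdgfa was at 21.4 and 26.8 CPM in WT and 24.1 and 20.7 CPM in Vil-CREPTKO and the follistatin-like gene Fstl1 at 3.08 and 3.07 CPM in WT and 2.55 and 2.75 CPM in Vil-CREPTKO. Fold changes of Pdgfa (-0.11) and Fstl1 (-0.21) did not pass the test, and 26.1% of the exon bases of Pdgfa also lie in an exon of a gene on the other strand.

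**Figure D3:**
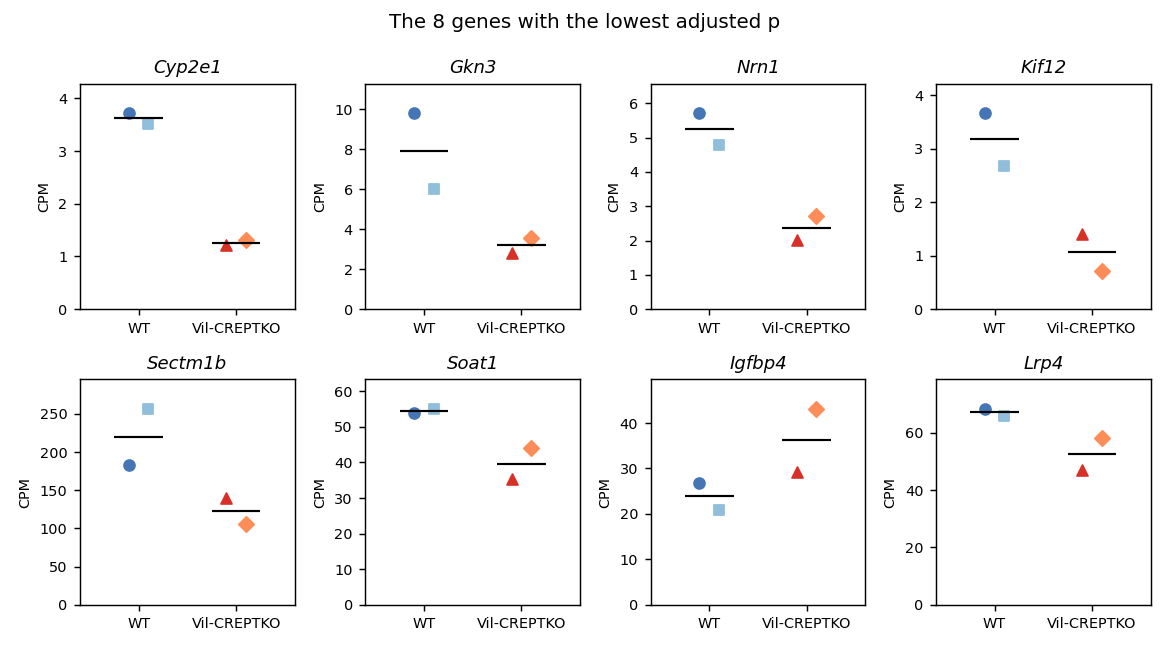
The 8 genes of the 33 with the lowest adjusted p, as CPM in the WT (blue circle, replicate 1, and light blue square, replicate 2) and Vil-CREPTKO libraries (red triangle, replicate 1, and orange diamond, replicate 2), with a bar at each group's mean. In each panel the groups do not overlap, and Igfbp4 is the only gene of the 8 that is higher in Vil-CREPTKO; Cyp2e1 and Gkn3 passed an adjusted p of 0.05.

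Among the surface receptors none passed the test. Lgr5 (ENSMUSG00000020140, chr10:115450311-115587780) was at 18.7 and 18.2 CPM in WT and 11 and 17.5 CPM in Vil-CREPTKO. Replicate 1 had 59.3% of the mean WT level and replicate 2 94.5%, both under the WT libraries, which were almost equal. The log2 fold change was -0.38 (SE 0.22, adjusted p = 0.503), with an interval of -0.87 to 0.12. With replicate 1 alone against WT it was -0.75 (SE 0.20), and with replicate 2 alone -0.084 (SE 0.18). Lrp4, an LDL receptor family member, was at 68.3 and 65.9 CPM in WT and 46.9 and 58.3 CPM in Vil-CREPTKO with a log2 fold change of -0.35 (SE 0.13, adjusted p = 0.247). This gene was below WT in both libraries.

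Rgmb, a co-receptor for bone morphogenetic proteins, was at 52.3 and 49.4 CPM in WT and 39.8 and 55.8 CPM in Vil-CREPTKO, on opposite sides of WT. Tnfrsf19, the TNF receptor family member also called TROY, was at 3.96 and 2.07 CPM in WT and 3.64 and 4.28 CPM in Vil-CREPTKO. WT replicate 2 was the low library for this gene, replicate 1 of Vil-CREPTKO lay between the WT libraries and replicate 2 above them. Log2 fold changes were -0.090 (SE 0.16, adjusted p = 0.875) for Rgmb and 0.39 (SE 0.34, adjusted p = 0.681) for Tnfrsf19.

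The study measured Lgr5 and Olfm4 by quantitative PCR as well, with the primers shown here to place these assays on the transcripts. On GENCODE M21 transcripts the Lgr5 pair matched 4 of 8 with a product of 165 bases, and the Olfm4 pair 2 of 3 with a product of 172 or 271 bases, and neither pair matched another gene.
Lgr5 forward: cctactcgaagacttacccagt
Lgr5 reverse: gcattggggtgaatgatagca
Olfm4 forward: aaagtgaccttgtgcctgcc
Olfm4 reverse: agggttctctctggatgctga
The RNA-seq counts pool all transcripts of a gene, so they cover transcripts that these pairs do not.

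Of the 7 adhesion and membrane genes, replicate 1 lay below both WT libraries for all, against 40% of all genes tested. Replicate 2 did so for 3, against 36.3%, and none of the 7 passed the test. Cd44 (ENSMUSG00000005087, chr2:102811141-102901665), the hyaluronan receptor and a Wnt target, was at 42.8 and 47.1 CPM in WT and 28.3 and 49.3 CPM in Vil-CREPTKO. Replicate 1 stood alone at 63.1% of the mean WT level, while replicate 2 was the highest of the 4 libraries. Over all 4 libraries its log2 fold change was -0.21 (SE 0.26, adjusted p = 0.796), against replicate 1 alone -0.66 (SE 0.15, adjusted p = 0.0340), and against replicate 2 alone 0.13 (SE 0.14, adjusted p = 0.813). The fold change of Cd44 had opposite signs in the separate fits.

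Prom1 was at 109 and 80.9 CPM in WT and 72.3 and 104 CPM in Vil-CREPTKO, with replicate 1 below both WT libraries and replicate 2 between them. Sdc4 was at 164 and 155 CPM in WT and 134 and 165 CPM in Vil-CREPTKO, with replicate 1 low and the other libraries close together. Their log2 fold changes were -0.11 (SE 0.21, adjusted p = 0.887) for Prom1 and -0.093 (SE 0.14, adjusted p = 0.846) for Sdc4. Amica1, an adhesion molecule gene of immune and epithelial cells now named Jaml, was at 23.5 and 38.5 CPM in WT and 23.0 and 24.2 CPM in Vil-CREPTKO. WT replicate 2 was far above the other libraries for Amica1, and its log2 fold change of -0.39 (SE 0.22, adjusted p = 0.498) was 0.0083 without that library and -0.71 (adjusted p = 0.0426) without WT replicate 1.

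Nrn1, for the GPI-anchored protein neuritin, was at 5.72 and 4.77 CPM in WT and 2.00 and 2.71 CPM in Vil-CREPTKO. The groups were apart by more than the spread within either, and the log2 fold change was -1.15 (SE 0.28, adjusted p = 0.0621) with an interval of -1.78 to -0.53. DESeq2 gave an adjusted p of 0.0170 for Nrn1 and library-size scaling 0.0229, while RLE scaling gave 0.0686 and upper-quartile scaling 0.0963. With each library left out, the log2 fold change of Nrn1 was between -1.38 and -0.96. Of its exon bases 22.3% also lie in exons on the other strand, and whether the counting used strand is not given in the sources used here. Scn2b was at 7.56 and 9.41 CPM in WT and 5.18 and 6.62 CPM in Vil-CREPTKO, and the urea transporter gene Slc14a1 at 14.7 and 17.0 CPM in WT and 9.57 and 13.1 CPM in Vil-CREPTKO. Both were below WT in both libraries, with log2 fold changes of -0.52 (SE 0.22, adjusted p = 0.324) for Scn2b and -0.48 (SE 0.20, adjusted p = 0.289) for Slc14a1. Scn2b and Amica1 are neighbours on chromosome 9, with 9247 bases between them.

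Of the 5 nuclear factors, none was below WT in Vil-CREPTKO replicate 2, against 36.3% of all genes. In replicate 1, 4 were below WT, against 40%, and none of the 5 passed the test. Cdca7 was at 87.9 and 92.6 CPM in WT and 72.2 and 96.1 CPM in Vil-CREPTKO and the methyl-CpG-binding zinc finger gene Zbtb38 at 43.6 and 42.2 CPM in WT and 34.1 and 45.8 CPM in Vil-CREPTKO. The orphan nuclear receptor gene Esrrg was at 23.6 and 24.3 CPM in WT and 17.3 and 24.8 CPM in Vil-CREPTKO, and the homeobox repressor gene Tgif1 at 31.6 and 26.1 CPM in WT and 25.8 and 32.3 CPM in Vil-CREPTKO. In all of these, replicate 1 was the lowest and replicate 2 the highest of the 4 libraries. Their log2 fold changes were -0.10 for Cdca7, -0.10 for Zbtb38, -0.18 for Esrrg and 0.0086 for Tgif1, with adjusted p values of 0.728 to 0.991.

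Vdr, the third most abundant of the 33 per kilobase, was at 537 and 513 CPM in WT and 552 and 608 CPM in Vil-CREPTKO. Both Vil-CREPTKO libraries were above both WT libraries, but the log2 fold change was only 0.14 (SE 0.16, adjusted p = 0.769), and with library-size scaling neither Vdr nor Igfbp4 kept its groups apart.

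Of the 6 genes for cytoplasmic signalling and the cytoskeleton, 5 were below WT in both Vil-CREPTKO libraries, against 24.2% of all genes. The median log2 fold change of the 6 was -0.59. Kif12 (ENSMUSG00000028357, chr4:63165630-63172131), a kinesin gene, was at 3.66 and 2.68 CPM in WT and 1.40 and 0.713 CPM in Vil-CREPTKO. Replicate 2 was the lowest here, at 22.5% of the mean WT level, and replicate 1 was at 44.2%. The log2 fold change of -1.59 (SE 0.40, adjusted p = 0.0713), with an interval of -2.48 to -0.70, was the most negative of the 33. DESeq2 gave an adjusted p of 0.0164 for Kif12. The fit with replicate 2 alone gave a log2 fold change of -2.15 (SE 0.48), and that with replicate 1 alone -1.17 (SE 0.43).

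Rgcc, a regulator of cell cycle progression, was at 3.56 and 4.86 CPM in WT and 1.77 and 2.91 CPM in Vil-CREPTKO, with a log2 fold change of -0.84 (SE 0.33, adjusted p = 0.261). The microtubule-associated gene Nav1 was at 16.7 and 17.1 CPM in WT and 13.2 and 13.7 CPM in Vil-CREPTKO, the pleckstrin homology-like gene Phlda1 at 9.23 and 9.69 CPM in WT and 7.75 and 8.33 CPM in Vil-CREPTKO, and the RAS association gene Rassf5 at 13.4 and 10.8 CPM in WT and 11.1 and 9.78 CPM in Vil-CREPTKO. Nav1 showed tight groups that did not overlap, with a log2 fold change of -0.33 (SE 0.16, adjusted p = 0.382). Phlda1, with a log2 fold change of -0.23, was below WT in both libraries, and Rassf5, at -0.21 on the same scale, had replicate 1 between the WT libraries. Of the exon bases of Phlda1, 33% also lie in an exon on the other strand. Shroom4 was at 0.744 and 0.508 CPM in WT and 0.322 and 0.346 CPM in Vil-CREPTKO, and its log2 fold change of -0.90 (SE 0.57, adjusted p = 0.551) had an interval of -2.18 to 0.38.

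The 3 metabolic genes were all below WT in both Vil-CREPTKO libraries, against 24.2% of all genes. The 3 were Cyp2e1, Soat1 and Acsl4. Soat1, which esterifies cholesterol, was at 53.8 and 55.1 CPM in WT and 35.3 and 44.1 CPM in Vil-CREPTKO. Its log2 fold change was -0.46 (SE 0.14, adjusted p = 0.135), with an interval of -0.76 to -0.15. The WT libraries of Soat1 were nearly equal, and the test of replicate 1 alone gave -0.62 (SE 0.14, adjusted p = 0.0329) and that of replicate 2 alone -0.31 (SE 0.14, adjusted p = 0.413). Acsl4, which activates long-chain fatty acids, was at 8.83 and 9.65 CPM in WT and 8.17 and 7.60 CPM in Vil-CREPTKO, with a log2 fold change of -0.23 (SE 0.19, adjusted p = 0.664).

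A further list of 18 crypt base genes, among them Ascl2, Axin2, Sox9 and Lrig1, was set beside the 33. With edgeR 0 of the 18 passed an adjusted p of 0.05, Sox9 was lower and Slc28a2 higher at an unadjusted p under 0.05, and DESeq2 called 1. The fold change was negative for 15 of 18, against 50.9% of all genes, with a median of -0.13 on the log2 scale. Replicate 1 was below both WT libraries for 15 of these genes, against 40% of all genes, and replicate 2 for 5, against 36.3%. Median log2 ratios to WT were -0.39 in replicate 1 and 0.087 in replicate 2. The median without Vil-CREPTKO replicate 1 was 0.086, and with a correction for GC content and length -0.016. Sox9, a transcription factor of crypt progenitors and Paneth cells, was at 55.0 and 58.4 CPM in WT and 35.7 and 46.7 CPM in Vil-CREPTKO (adjusted p = 0.159, log2 fold change -0.46). Slc28a2, a nucleoside transporter gene, was at 106 and 89.5 CPM in WT and 231 and 143 CPM in Vil-CREPTKO (adjusted p = 0.0959, log2 fold change 0.93 with an SE of 0.23).

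Markers of other crypt cells did not all follow the order of the libraries seen for the stem cell genes. The 12 proliferation genes summed to 1311 and 1415 CPM in WT and 1174 and 1446 CPM in Vil-CREPTKO, again with replicate 1 the lowest, and 1 of them passed an adjusted p of 0.05, downward. The 7 tuft cell markers, by contrast, summed to 198 and 235 CPM in WT and 119 and 111 CPM in Vil-CREPTKO. All 7 were below WT in both libraries, against 24.2% of all genes. Of the 7, 3 passed an adjusted p of 0.05 downward, against 2.49% of all genes. Paneth markers (8 genes) ran from 12714 to 17672 CPM in WT and from 16485 to 17638 CPM in Vil-CREPTKO, and goblet markers (7 genes) from 8830 to 9502 and from 7427 to 7499. Enteroendocrine markers (8 genes) were at 391 to 415 and 488 to 559 CPM. Gene by gene, 4 enteroendocrine markers had negative and 4 positive fold changes. Both Vil-CREPTKO libraries lay above both WT libraries for 3 of the 8, against 21% of all genes. Of the Paneth markers, 3 had negative and 5 positive fold changes.

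Immune markers (13 genes) were at 677 to 851 CPM in WT and 537 to 637 CPM in Vil-CREPTKO. Stromal markers (9 genes) were at 8.68 and 9.98 CPM in WT, 21.5 CPM in replicate 1 and 5.40 CPM in replicate 2, a low level throughout. The sums of tuft, goblet and immune markers were thus lower in both Vil-CREPTKO libraries than in both WT libraries. Gene by gene this held for 7 of 7 tuft, 3 of 7 goblet and 3 of 13 immune markers, against 24.2% of all genes. Fold changes were positive for 2 goblet and 5 immune markers. The part of these cell types in the stem cell gene levels was not tested.

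**Figure D4:**
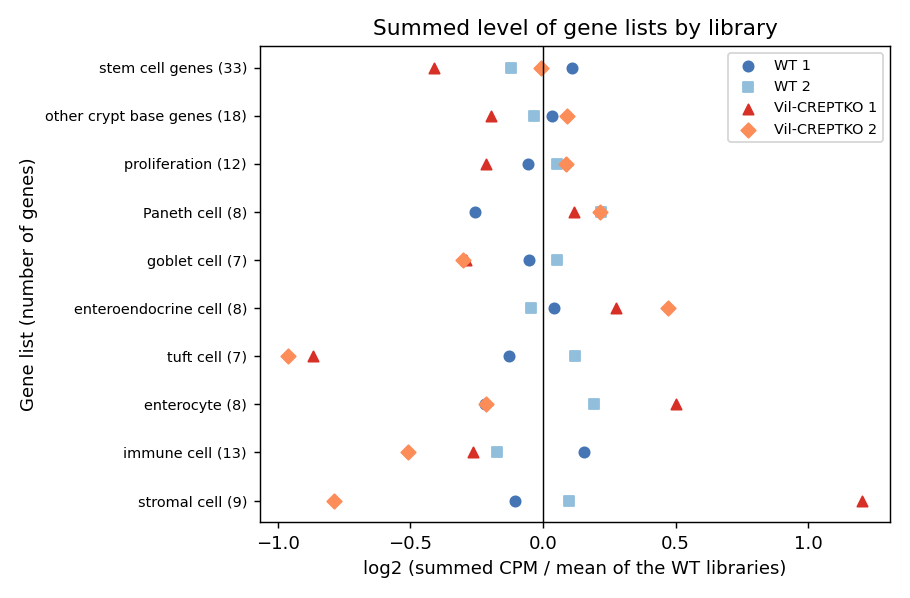
Summed CPM of the 33 stem cell genes and of marker lists in each library, as the log2 ratio to the mean of the WT libraries, with the number of genes of each list in brackets. Vil-CREPTKO replicate 1 is the lowest library for the stem cell, other crypt base and proliferation genes, whereas both Vil-CREPTKO libraries are low for tuft cell markers, at 119 and 111 CPM against 198 and 235 CPM.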

How the data were processed

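Total RNA of intestinal crypts was sequenced from 2 WT and 2 Vil-CREPTKO libraries. The authors deposited whole-number read counts per Ensembl gene, made with CASAVA 1.8, Bowtie2 and RSEM on GRCm38.p6 as named in the submitters' processing notes and the study's methods, without pooling. The counter that gave whole numbers and its strand setting are not given in the sources used here, and the sequencer is named differently in the methods (BGISEQ) and the public record (Illumina). Of 53845 entries, 53360 (99.1%) matched GENCODE M21, and 380 unnamed loci with 0.178% to 0.247% of the counts were kept.

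Groups and replicate numbers came from the sample titles. Counts were filtered (filterByExpr, 17504 genes left), scaled by TMM and fitted in edgeR 4.0.16 (R 4.3.3) with robust quasi-likelihood (glmQLFit, glmQLFTest, two-sided), with Benjamini-Hochberg adjustment over the 17504 genes. The scripts were tested on simulated data. CPM are TMM-scaled, and levels per kilobase use the exon union length. The SE is the log2 fold change over the square root of F, and intervals are 95%. For genes with many counts, the spread between libraries (biological coefficient of variation 0.188) was the limit of precision. Counting error takes a larger part for genes with few counts. Shroom4 had only 14 to 38 counts per library, and Kif12, with the most negative fold change of the 33, had 35 to 187. Floors of 3 counts cover counting error only. Counts of libraries of a group differed beyond sampling noise (chi-square 49.8 per gene in WT and 70.1 in Vil-CREPTKO), so none was a duplicate.

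The 33 genes, the marker lists and the tests were chosen with earlier results of these data known. The genes named in full were those with the 8 lowest adjusted p values, the 8 highest levels per kilobase, and those with Vil-CREPTKO libraries on opposite sides of WT. Alternatives were DESeq2 1.42.0, other scalings, other filters, a replicate block, a loess correction for GC content and length (span 0.5), a pseudocount of 0.1 CPM in place of 0.5 for the ratios, and each library left out. Start-site windows came from RefSeq (GRCm38.p6), matched by symbol, and primers from the study's supplement.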

Additional observations from a re-analysis of the deposited data

How the results depend on the processing

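With 2 libraries per group, how many of the 33 stem cell genes passed an adjusted p of 0.05 depended on the setting. It was 2 as reported, 5 with DESeq2, 5 with library-size scaling, 1 with upper-quartile scaling, 8 with no filter on low counts, and 1 to 3 with each library left out. DESeq2 added Nrn1, Sectm1b and Kif12. Past the study's thresholds there were 2 as reported, 4 with DESeq2, library-size scaling or no filter, 1 with upper-quartile scaling, and 0 to 2 with each library left out. Of the 18 other crypt base genes 0 passed as reported, 1 with DESeq2 or library-size scaling, 2 with no filter, and 0 to 2 with each library left out. Over all genes 513 passed as reported, 808 with DESeq2, 849 with library-size scaling and 1308 with no filter. Replicate numbers were shared between the groups, but same-numbered libraries did not deviate together (correlation 0.00144 over all genes). With 2 libraries per group this cannot settle whether the numbers are a pairing, and the main fit used none. A replicate block gave 3 of the 33 and 1 of the 18, the latter also with a GC and length correction. The crossed pairing, added after seeing the data because the correlation over the 33 genes alone was -0.157, gave 6 of the 33. It was picked from the values that it tests, so these 6 calls add no evidence. The median log2 fold change of the 33 was between -0.44 and -0.20 with each library left out, and -0.44 without Vil-CREPTKO replicate 2. The median log2 ratio to WT in Vil-CREPTKO replicate 1 was -0.57 with library-size scaling, which shifted the median of all genes from -0.0060 to -0.098, and -0.43 to -0.36 with a WT library left out. In replicate 2 it was -0.18 with RLE scaling, -0.175 with upper-quartile scaling, -0.225 with library-size scaling, and -0.141 to -0.140 with a WT library left out. With library-size scaling 0 of the 33 lay above WT in both libraries, in place of 2. Under the 13 settings 22 of the 33 fold changes kept their sign, 19 negative and 3 positive. Of the other 11, Tgif1 was -0.081 with library-size scaling and Pdgfa 0.00050 with the block and the GC and length correction. With each library left out, log2 fold changes ranged from -0.35 to 0.13 for Rgmb, -0.66 to 0.13 for Cd44, -0.39 to 0.13 for Prom1, -0.25 to 0.047 for Sdc4, -0.71 to 0.0083 for Amica1, -0.44 to 0.075 for Olfm4, -0.26 to 0.067 for Pdgfa, -0.32 to 0.088 for Cdca7, -0.46 to 0.048 for Esrrg, -0.16 to 0.16 for Tgif1 and -0.32 to 0.093 for Zbtb38. In 8 of these genes (Rgmb, Cd44, Prom1, Sdc4, Olfm4, Cdca7, Esrrg and Zbtb38) the sign turned without Vil-CREPTKO replicate 1. The causes were not tested.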
